A study of Mus musculus with 42 samples.

Results

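The left side of the heart field was compared between mouse embryos with situs inversus totalis, in which the heart tube loops to the left, and embryos with situs solitus, the normal arrangement. The comparison used 15 of the 42 libraries of the series, namely 5 from inverted embryos (2_7, 4_6, 10_3, 18_2 and 32_2) and 10 from situs solitus embryos. All 5 inverted embryos were Ccdc40lnks/lnks mutants, 3 males and 2 females, and were the embryos labelled with inverted heart looping. The situs solitus reference joined 5 wild types with the genotype Ccdc40+/+ (7_1, 8_1, 10_1, 17_7 and 22_4, 4 males and 1 female) to 5 Ccdc40lnks/lnks mutants with rightward looping (1_6, 2_2, 17_1, 19_6 and 22_1, 2 males and 3 females). The other 6 mutants with rightward looping (15_5, 18_1, 19_4, 23_3, 32_3 and 3_7) were assigned to heterotaxy, a mixed arrangement of the sides, by the study from expression. They are used below only as a further reference, so that comparisons by looping label alone set inverted embryos against situs solitus and heterotaxy mutants together. The lnks allele is a chemically induced nonsense mutation of *Ccdc40*, which encodes a ruler protein of motile cilia, and the mutation is present in every cell of the animal.

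The study collected embryos at embryonic day 8.5, when the heart tube loops, cut the heart field along the midline and sequenced polyadenylated RNA from the left and right sides of 21 embryos separately. The heart tube, the head, the back and the trunk below the second somite had been removed. The situs solitus mutants were assigned from the expression of genes that differed between the sides in wild types, so the groups were not formed by heart looping alone. Therefore 30 genes, here called the clustering genes, which differed between right and left in wild types and in the same direction in all 5 of them, are described on the left without a test against situs solitus. They were rebuilt without the filter on single-cell expression that the study applied, so some of them may not have entered its choice. For every other gene named, the difference between the 5 inverted embryos and all 11 rightward mutants, which used the looping label alone, is given beside the main one for the genes described with the value of every inverted embryo. Where a result depends on the reference, that reference contained wild types and mutants, whereas the inverted group contained mutants only.

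Left-right asymmetry is set before heart looping, when cilia of the embryonic node move fluid leftwards and the signalling protein NODAL becomes active in the left lateral plate mesoderm. NODAL induces its own inhibitor *Lefty2*, which limits the signal. The heart field is the mesoderm dorsal to the tube that adds cells to both of its poles. Inverted heart looping is seen when the sides are exchanged, but the study also found it in some heterotaxy mutants. In these bulk libraries a lower level of a gene can mean fewer cells that express it or less RNA in each cell, and these cannot be told apart.

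*Lefty2*, the gene of the NODAL pathway with the lowest fitted left level relative to situs solitus, is shown with the 250 bases before its annotated start in the mouse assembly GRCm39, at chr1:180720385-180720634 on the plus strand, read 5′ to 3′.
Lefty2: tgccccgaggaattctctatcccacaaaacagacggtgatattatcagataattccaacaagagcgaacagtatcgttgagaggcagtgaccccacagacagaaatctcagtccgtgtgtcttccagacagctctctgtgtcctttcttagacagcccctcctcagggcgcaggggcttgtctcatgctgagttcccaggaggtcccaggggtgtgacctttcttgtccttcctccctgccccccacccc
The FOXH1 motif TGTGGATT, bound by the cofactor through which NODAL signals reach DNA, was not among the letters of this window on either strand. Of 21757 promoters of the same length, 168 (0.772%) held that motif. No other form of the motif and no sequence of *Lefty2* outside this window was searched, so nothing is read from its absence.

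*Ccdc40*, the mutated gene, was measured at 11.4, 11.8, 14.8, 13.2 and 11.8 CPM (read counts scaled by the normalised library size) in the left libraries of the 5 inverted embryos, in the order given above. The wild types had 15.2 to 23.4 CPM and did not overlap with the inverted embryos, whereas the situs solitus mutants had 9.86 to 12.4 CPM and the other rightward mutants 11.8 to 14 CPM. The level therefore followed the labelled genotype and not the looping direction. The log2 difference was -0.31 ± 0.18 (SE) against situs solitus and 0.03 ± 0.08 against the 11 rightward mutants.

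The left libraries held 39456168 to 54421974 counts in inverted and 38886687 to 55958371 counts in situs solitus embryos, and the totals did not differ beyond the spread between embryos (exact permutation test, two-sided, p = 0.683 over 3003 splits). Markers of cardiac progenitors were present in every library, with a summed level of 414 to 644 CPM in inverted and 353 to 903 CPM in situs solitus embryos for 8 heart field markers. All 8 had a negative left difference, with a median of -0.28, and 7 of 8 a positive right difference, with a median of 0.51, and the part of this in the results for gene groups was not tested. The left library of embryo 2_2 stood apart from the rest of its group, with the lowest sum of situs solitus for heart field, heart tube muscle and visceral endoderm markers. Its foregut sum was also the lowest, at 1019 CPM, but lay close to the 1023 CPM of embryo 22_4. Visceral endoderm markers were also low in the inverted embryo 10_3, at 46.4 CPM, against up to 706 CPM in the other inverted embryos.

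Few genes passed the test on the left. Of 24045 genes, 4 (0.0166%) had an adjusted p under 0.05 in edgeR's quasi-likelihood test, adjusted after Benjamini and Hochberg. Of these, 3 were lower (0.0125%) and 1 was higher (0.00416%) in inverted embryos. The count includes 2 clustering genes, for which the test is not independent of the choice of embryos, and the other calls were *Nptx2*, lower, and *Slc8a3*, higher. At an unadjusted p under 0.05, 1158 genes were lower (4.82%) and 678 higher (2.82%), together 7.64%. DESeq2 called more, with 164 of 24009 genes lower (0.683%) and 24 higher (0.1%), together 0.783%. By looping label alone, against the 11 rightward mutants, edgeR called 2 of 24324 genes (0.00822%), *Nptx2* among them, with 1947 genes (8%) at an unadjusted p under 0.05, and DESeq2 called 125 (0.516%). With the reference divided, 14 of 23046 genes were lower against the 5 situs solitus mutants (0.0607%), of which 6 were also lower on the right against all situs solitus embryos at an unadjusted p under 0.05, and 4 of 22903 against the 5 wild types (0.0175%), and 0 were higher in either. The median log2 difference over all genes was 0.0076. The counts moved with single libraries, from 2 genes without embryo 10_3, 18_2 or 32_2 to 13 without embryo 2_2, whereas *Nptx2* passed against situs solitus whichever of the 15 libraries was left out.

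**Figure D1:**
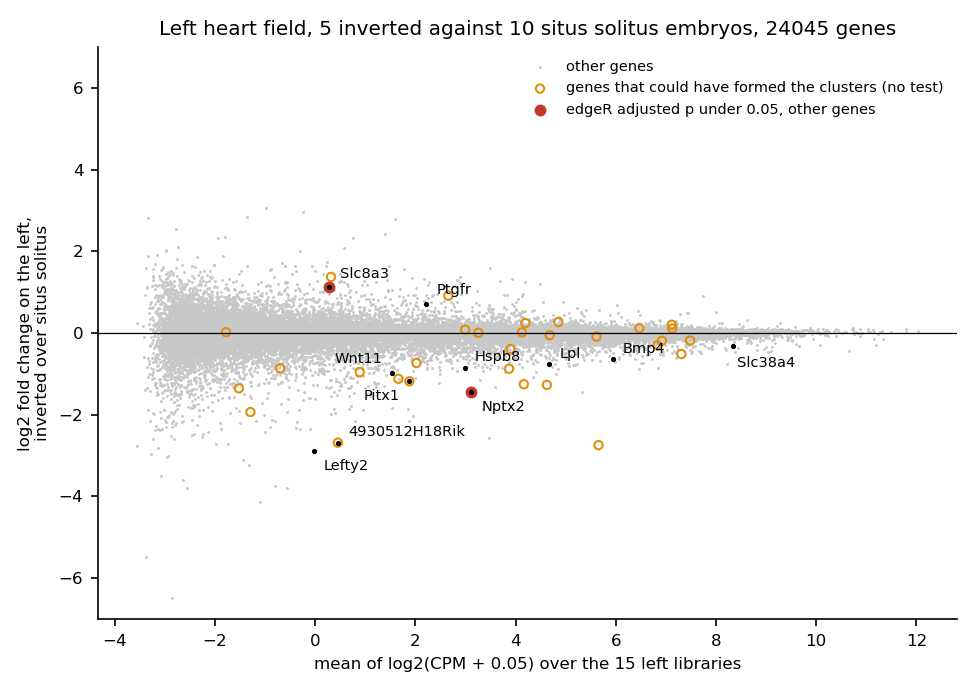
Log2 difference between situs inversus totalis and situs solitus on the left (vertical axis) against mean level (horizontal axis, log2 of CPM + 0.05) for the 24045 genes tested. Filled red points passed the edgeR test and are no clustering genes, open circles are the 30 clustering genes, and labels give some of the named genes, of which *Lefty2* (-2.89) and *4930512H18Rik* (-2.68) have the lowest labelled values.

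*Nptx2* (chr5:144482692-144500381) encodes a secreted neuronal pentraxin that gathers AMPA receptors at synapses. It was at 5.7, 3, 5.11, 4.06 and 4.58 CPM in the 5 inverted embryos and ranged from 8.42 to 14.8 CPM with a median of 12.9 in situs solitus. The groups did not overlap, and the other rightward mutants, at 6.81 to 14.3 CPM, also lay above every inverted embryo. *Nptx2* fell by 1.45 ± 0.16 on the log2 scale, 2.73-fold, with an edgeR adjusted p of 0.00143. It was not a clustering gene, and it also fell by looping label alone, by 1.32 ± 0.19 (edgeR, adjusted p = 0.028), a call that was lost in 10 of the 16 fits that left out 1 library. It passed against the 5 situs solitus mutants (edgeR, adjusted p = 0.0259) and against the 5 wild types (edgeR, adjusted p = 0.0282) taken separately. On the right it had 9.75 to 16.3 CPM in inverted and 3.13 to 12.9 CPM in situs solitus embryos, with a log2 difference of 0.87 ± 0.28 that did not pass (edgeR, adjusted p = 0.611).

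*Lefty2* (chr1:180720635-180726932), the secreted NODAL inhibitor, was at 0.2, 0.489, 0.267, 0.1 and 0.326 CPM in the inverted embryos, from as few as 4 counts a library. In situs solitus it ranged from 0.773 to 5.08 CPM with a median of 1.6. The groups did not overlap, and the other rightward mutants reached 15.6 CPM. The log2 difference was -2.89 ± 0.55 (edgeR, adjusted p = 0.145), and DESeq2 gave an adjusted p of 1.6e-06. By label alone the difference was -4.01 ± 0.67 (edgeR, adjusted p = 0.0944), and against the 5 situs solitus mutants *Lefty2* fell by 3.50 (edgeR, adjusted p = 0.042). Against the 5 wild types the difference was -2.16 ± 0.41 (edgeR, adjusted p = 0.247), and the left medians were 0.893 CPM in wild types and 2.39 CPM in situs solitus mutants. On the right *Lefty2* was at 1.55 to 27.9 CPM in inverted and at 0 to 2.4 CPM in situs solitus embryos.

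*Slc8a3* (chr12:81244687-81380796), which encodes a sodium-calcium exchanger of the plasma membrane, rose on the left. It was at 1.94, 1.84, 1.87, 2.48 and 1.88 CPM in the inverted embryos and ranged from 0.539 to 1.24 CPM with a median of 0.926 in situs solitus, with no overlap. The log2 difference was 1.13 ± 0.17, 2.2-fold (edgeR, adjusted p = 0.0337). Among the other rightward mutants the level reached 2.03 CPM and overlapped with the inverted embryos, and by label alone the difference was 1.03 ± 0.28 (edgeR, adjusted p = 0.406). The call was lost in 9 of the 15 fits that left out 1 library and in the fit without sex (edgeR, adjusted p = 0.0731). On the right the log2 difference was -0.09 ± 0.24.

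**Figure D2:**
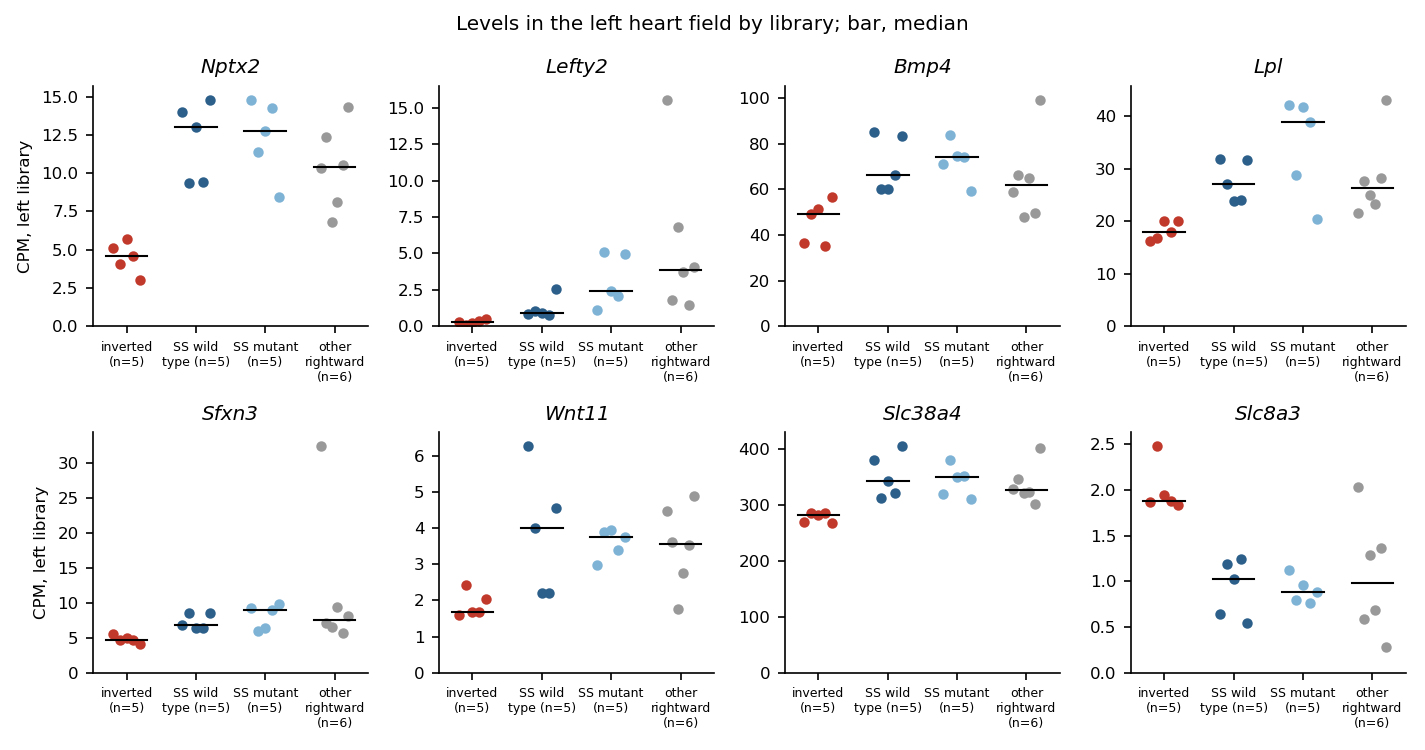
Left level in CPM (vertical axes from 0) of 8 genes in each library of the inverted, situs solitus wild type, situs solitus mutant and other rightward mutant groups. Each point is 1 embryo and each bar is a group median. Inverted embryos lie below every other embryo for *Nptx2*, *Lefty2*, *Lpl*, *Sfxn3* and *Slc38a4*.

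With the genes above included, 23 genes were lower (0.0957%) and 12 higher (0.0499%) in inverted embryos with no overlap between the 5 and 10 left values, together 0.146%. Clustering genes make up 2 of the 23 and 1 of the 12, and 1 of the 8 lower genes given next. When all 16 embryos with rightward looping were set against the 5 inverted ones, 8 genes lay lower without overlap (0.0333%), among them *Nptx2*, *Lefty2*, *Lpl*, *Slc38a4*, *Ggta1*, *Sfxn3* and *Cyp2j6*, and *Tra2a* lay higher (0.00416%). *Cyp2j6* and *Slc8a3* are outside the rule for named genes and were named after their values were seen, as were *Smyd1*, *4930512H18Rik* and *D030025E07Rik*. Many other clustering genes and list members described below, such as *Col3a1*, *Furin*, *Bmper* and *Tbx3*, are also outside that rule.

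*Slc38a4*, *Lpl*, *Sfxn3*, *Ggta1* and *Slc25a42* were among the genes with separated and lower levels, none of them with an edgeR adjusted p under 0.05. *Slc38a4* (chr15:96892693-96958593), an amino acid transporter, was at 282, 268, 269.8, 285 and 286 CPM in inverted embryos and between 311 and 406 CPM with a median of 347 in situs solitus. The separation was small in size but the spread was smaller, with a log2 difference of -0.32 ± 0.06 (edgeR, adjusted p = 0.084; -0.28 ± 0.05 by label alone, adjusted p = 0.137). *Lpl* (chr8:69284603-69360100), lipoprotein lipase, was at 20, 19.9, 16.2, 16.8 and 18 CPM against 20.5 to 42.1 CPM with a median of 30.2. Its log2 difference was -0.76 ± 0.15 (edgeR, adjusted p = 0.145; -0.74 ± 0.16 by label alone, adjusted p = 0.301). *Sfxn3*, a mitochondrial sideroflexin, had 4.14 to 5.51 CPM against 5.94 to 9.87 CPM, and *Ggta1*, a galactosyltransferase of cell surface glycans, 30.8 to 37.1 CPM against 38.3 to 51.4 CPM. *Slc25a42*, the mitochondrial coenzyme A carrier, had 3.1 to 4.26 CPM against 4.36 to 6.12 CPM and lies in the interval of chromosome 8 where several genes had the same sign of difference on both sides of the heart field. For *Slc25a42* the other rightward mutants, at 3.15 to 5.64 CPM, overlapped with the inverted embryos.

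*Synpo2*, *Hspb8*, *Tnik* and *Hand2os1* also had separated and lower levels, and none of them passed the edgeR test. *Synpo2*, an actin-binding protein of muscle, was at 9.12 to 11.8 CPM against 12.3 to 24.6 CPM (log2 difference -0.71 ± 0.16), and against the situs solitus mutants alone it fell by 0.88 ± 0.12 (edgeR, adjusted p = 0.0259; -0.60 ± 0.16 against the wild types, adjusted p = 0.448). *Hspb8*, a small heat shock protein, was at 3.16 to 7.02 CPM against 7.47 to 15.8 CPM. *Tnik*, a kinase that acts with the WNT effector TCF4, was at 4.08 to 5.26 CPM against 5.54 to 9.64 CPM, but the other rightward mutants, at 4.47 to 7.11 CPM, overlapped with the inverted embryos. *Hand2os1*, a non-coding RNA transcribed from the locus of the cardiac factor HAND2, was at 16.6 to 30.1 CPM against 30.5 to 56.8 CPM, and its overlap with that gene makes the count uncertain. The other rightward mutants overlapped with the inverted embryos for *Synpo2* (7.96 to 31.6 CPM), *Hspb8* (6.95 to 51.5 CPM) and *Hand2os1* (21.9 to 60.8 CPM) as well.

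*Napepld*, *Fan1*, *Tmod2* and *Tra2a* had separated and higher levels with log2 differences of 0.14 to 0.53, and none of them passed the edgeR test. *Napepld*, the enzyme that makes N-acylethanolamine lipids, was at 12.3, 12.4, 12.7, 12.3 and 11.7 CPM against 6.25 to 11 CPM with a median of 8.39 (log2 difference 0.53 ± 0.10; edgeR, adjusted p = 0.145; 0.40 ± 0.12 by label alone, adjusted p = 0.428). The inverted values lay close together, although the other rightward mutants reached 12.3 CPM. *Fan1*, a nuclease of DNA crosslink repair, was at 4.48 to 6.09 CPM against 3.09 to 4.32 CPM. *Tmod2*, which caps actin filaments, was at 34 to 38.2 CPM against 23.9 to 33.5 CPM, and *Tra2a*, a splicing factor, at 193 to 201 CPM against 159 to 191 CPM. The other rightward mutants also overlapped with the inverted embryos for *Fan1* (3.15 to 5.03 CPM) and *Tmod2* (26 to 38.9 CPM).

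The 30 clustering genes are described without a test, because they could have entered the choice of the situs solitus embryos. Of 23 that were left-sided in wild types, 19 had a lower and 4 a higher fitted left level in inverted than in situs solitus embryos, with a median log2 difference of -0.73 on the left and 0.63 on the right. Of 7 that were right-sided, all 7 were higher on the left, with a median of 0.24, and lower on the right, with a median of -0.49. *4930512H18Rik* (chr8:62301804-62375868) had 0.163 to 0.871 CPM in inverted and 0.925 to 5.73 CPM in situs solitus embryos, with no overlap. *Pitx1*, known for its role in hindlimb identity, had 1.65 to 3.16 CPM against 2.63 to 10.7 CPM, and the matricellular genes *Postn* (13 to 18.4 against 10.2 to 128 CPM) and *Ccn4* (8.33 to 13.3 against 5.62 to 31.5 CPM) overlapped more.

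The clustering genes differed among themselves. The non-coding RNA *D030025E07Rik*, which is right-sided in wild types, had 8.62 to 12.4 CPM on the left of inverted embryos against 3.64 to 7.71 CPM, with no overlap and a log2 difference of 0.91 ± 0.16. By label alone the difference was 0.69 ± 0.16 (edgeR, adjusted p = 0.344). In contrast, the collagen gene *Col3a1* (127 to 188 against 66.7 to 223 CPM) and the WNT inhibitor gene *Sfrp1* (92.3 to 213 against 66.9 to 191 CPM), both left-sided in wild types, had log2 differences of 0.11 ± 0.25 and 0.20 ± 0.20 on the left.

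The right sides of the same embryos were compared in the same way. On the right, 0 of 24009 genes passed the edgeR test (0%), 1693 (7.05%) had an unadjusted p under 0.05, and DESeq2 called 69 (0.288%). Of the 164 genes that DESeq2 called lower on the left, 6 were clustering genes. Of the other 158, 140 had a fitted difference of the opposite sign on the right, 17 of the same sign, and 1 was not tested there. Among all genes with a negative left difference the share with the opposite sign on the right was 59.5% of 11227. Both sides of an embryo share its stage and its midline cut, so the left and right differences are not independent. The median log2 difference of the 158 genes was -0.65 on the left and 0.34 on the right. Of the 24 genes called higher, 1 was a clustering gene and 16 of the other 23 had the opposite sign on the right, with medians of 0.57 and -0.11, and the share among all genes with a positive left difference was 60.3% of 12260.

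The difference between the left and right differences was tested with the embryo as a block, and 253 of 25623 genes passed (0.987%), 211 lower (0.823%) and 42 higher (0.164%) on the left. Without the replicate block 33 passed. The 253 include clustering genes, such as *Ccn4* and *4930512H18Rik*. The study sorted the situs solitus embryos by differences between the sides, the quantity tested here. The interaction p-values are therefore not independent of the choice of embryos, and no interaction was fitted by looping label alone. *Nptx2* had an interaction of -2.42 ± 0.33 on the log2 scale (edgeR, adjusted p = 0.00234) and *Lefty2* of -5.67 ± 0.93 (edgeR, adjusted p = 0.00865). *Lpl* passed at -1.12 ± 0.13 (edgeR, adjusted p = 0.000786), *Slc38a4* at -0.44 ± 0.08 (edgeR, adjusted p = 0.021) and *Slc8a3* at 1.22 ± 0.27 (edgeR, adjusted p = 0.0411). The interaction count was the most dependent on single embryos, from 50 without embryo 32_2 to 772 without embryo 22_4.

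**Figure D3:**
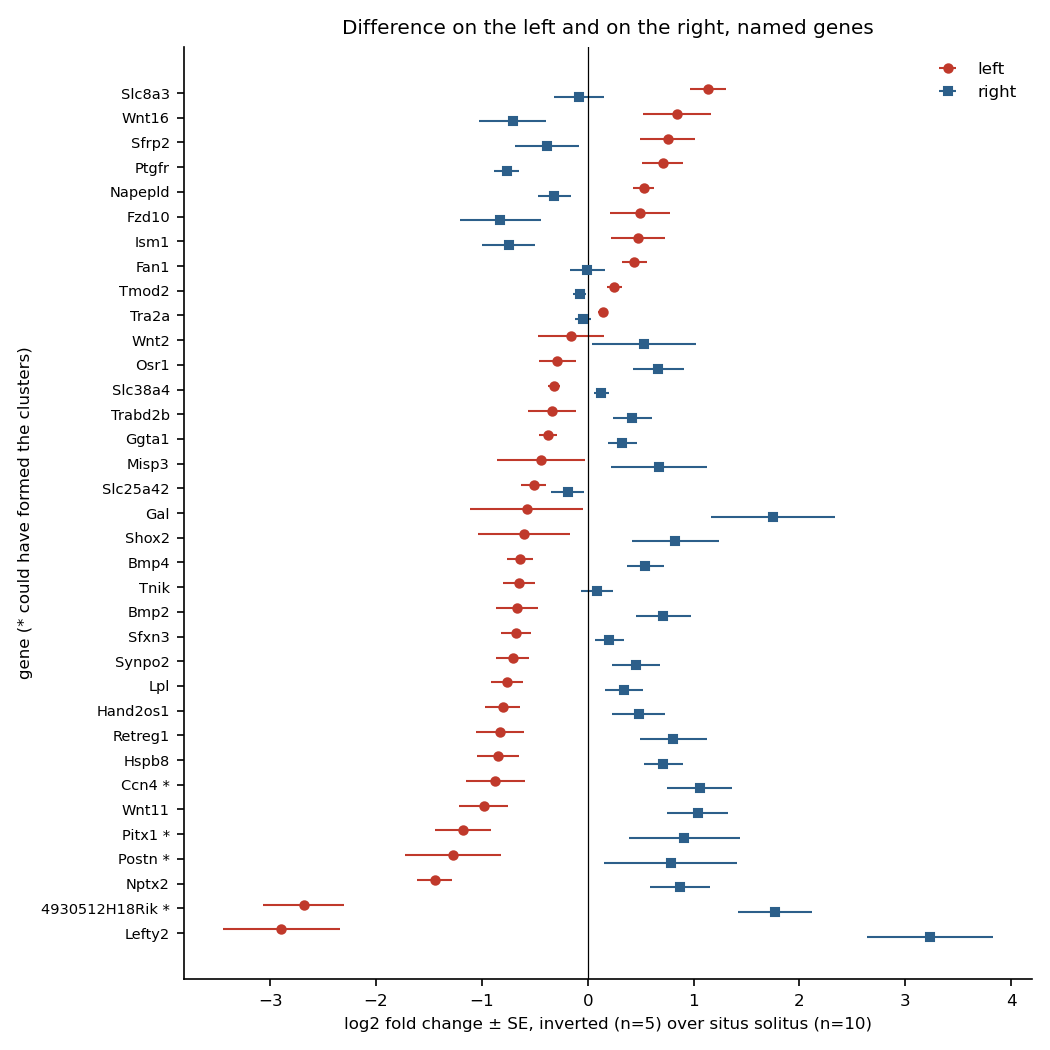
Log2 difference between situs inversus totalis and situs solitus (horizontal axis, ± SE) on the left and on the right for 35 named genes, with clustering genes marked by an asterisk. *Nptx2*, *Lefty2* and *Bmp4* lie below 0 on the left and above 0 on the right, whereas *Slc8a3* is at 1.13 on the left and -0.09 on the right.

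Members of the signalling pathways of the heart field were described next, as counts at an unadjusted p under 0.05 against the shares over all genes, 4.82% lower and 2.82% higher. Outside the clustering genes, no member of any list passed the edgeR test against all 10 situs solitus embryos after adjustment over all genes. Counts and medians of a list leave out its clustering genes. In the NODAL pathway 3 of 20 tested genes were lower and 0 higher, and the median log2 difference was -0.04. These were *Lefty2*, the protease gene *Furin*, which processes NODAL precursors (16.3 to 22.1 against 18.3 to 28.7 CPM), and *Skil*, a repressor of SMAD transcription (48 to 65.7 against 55.8 to 80.5 CPM). The ligand *Nodal* itself was at 0.0222 to 0.163 CPM in inverted and 0.0525 to 0.27 CPM in situs solitus embryos (log2 difference -0.67 ± 0.48). With as few as 1 count, the level was too low to judge a difference. The study places *Nodal* expression in the lateral plate mesoderm at an earlier substage than the one collected here. The inhibitors *Lefty1* and *Dand5* overlapped between the groups, with log2 differences of -0.26 ± 0.40 and 0.07 ± 0.20.

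Several genes of BMP signalling, which patterns the heart-forming mesoderm, had lower fitted levels. Of 18 tested BMP ligands and antagonists 7 were lower and 0 higher at an unadjusted p under 0.05, with a median log2 difference of -0.21 on the left and 0.13 on the right. *Bmp4* (chr14:46620250-46636745), a BMP ligand of the lateral plate, was at 51.4, 56.8, 36.7, 49 and 35.3 CPM in inverted embryos and between 59.4 and 85.1 CPM with a median of 72.8 in situs solitus. The groups did not overlap, although the other rightward mutants, at 47.9 to 99.4 CPM, did. The log2 difference was -0.64 ± 0.12 (edgeR, adjusted p = 0.145; DESeq2, adjusted p = 7.49e-05; -0.55 ± 0.15 by label alone, edgeR adjusted p = 0.41). *Bmper*, a secreted BMP-binding protein, had 5.31 to 7.47 CPM against 6.93 to 16.6 CPM (log2 difference -0.83 ± 0.18; -0.90 ± 0.16 by label alone, edgeR adjusted p = 0.137). The pseudoreceptor gene *Bambi* had 99.9 to 136 CPM against 123 to 219 CPM, and *Bmp2* 16.4 to 27.7 CPM against 13.6 to 50.4 CPM, where the lowest situs solitus value was that of embryo 2_2.

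All 12 tested genes of the BMP response had a negative log2 difference on the left and a positive one on the right, with medians of -0.32 and 0.25, and 7 of 12 had an unadjusted p under 0.05 on the left. Over all genes tested on both sides, 6675 of 23487 had a negative left and a positive right difference. *Tbx3*, a T-box factor of the sinoatrial node and a BMP target, had 72.4 to 89.3 CPM in inverted and 85 to 169 CPM in situs solitus embryos, with medians of 80.1 and 127. Its log2 difference was -0.64 ± 0.14 (edgeR, adjusted p = 0.223), and against the 5 situs solitus mutants it fell by 0.71 ± 0.09 (edgeR, adjusted p = 0.024; -0.64 ± 0.15 against the wild types, adjusted p = 0.346; -0.65 ± 0.20 by label alone, adjusted p = 0.428). *Msx2* had 17.9 to 31 CPM against 23.9 to 52.3 CPM, *Id1* 135 to 164 CPM against 148 to 255 CPM, and *Id3* 362 to 413 CPM against 329 to 456 CPM, the last with a log2 difference of -0.09 ± 0.07.

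WNT genes had differences of both signs. Of 19 ligands 3 were lower and 2 higher at an unadjusted p under 0.05, with a median of -0.02. *Wnt11*, a non-canonical ligand, was at 1.67, 2.02, 1.6, 2.43 and 1.68 CPM against 2.2 to 6.26 CPM with a median of 3.82, so that the groups overlapped in 1 inverted embryo. Its log2 difference was -0.98 ± 0.23 (edgeR, adjusted p = 0.24; -0.92 ± 0.20 by label alone, adjusted p = 0.265), and on the right it was 1.04 ± 0.29. *Wnt16* was at 1.03 to 1.8 CPM against 0.173 to 1.26 CPM. Among 31 receptors and modulators 2 were lower and 1 higher, the last being the secreted modulator gene *Sfrp2* (22.2 to 68.6 against 17.5 to 48.9 CPM). Among 13 tested canonical targets 1 was lower and 3 higher, including *Axin2*, the feedback inhibitor of canonical WNT signalling, at 19.1 to 36.2 CPM against 16.6 to 27.4 CPM (log2 difference 0.42 ± 0.14; edgeR, adjusted p = 0.475).

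Most heart muscle genes had a negative difference on the left and a positive one on the right. Of 25 tested genes 23 had a negative left difference and 22 a positive right difference, with medians of -0.41 and 0.63, and 8 were lower at an unadjusted p under 0.05 on the left. Over all genes tested on the left, 11486 of 24045 had a negative difference. *Acta2*, smooth muscle actin, which the early heart also expresses, had 139 to 282 CPM in inverted and 225 to 571 CPM in situs solitus embryos (log2 difference -0.75 ± 0.17; edgeR, adjusted p = 0.24). *Smyd1* (chr6:71190923-71299217), a muscle methyltransferase required for cardiac differentiation, had 47 to 74.8 CPM against 73.7 to 190.0 CPM (log2 difference -0.87 ± 0.15; edgeR, adjusted p = 0.084; DESeq2, adjusted p = 8.04e-07; -0.86 ± 0.21 by label alone, edgeR adjusted p = 0.344). The sum of 8 markers of heart tube muscle, tissue that had been cut away, was 1276 to 2475 CPM against 1084 to 4671 CPM, and 7 of its 8 genes had a negative left difference. Its part in the result for muscle genes was not tested.

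In the list of the anterior second heart field 4 of 16 genes were lower at an unadjusted p under 0.05, *Bmp4*, *Mef2c*, *Nkx2-5* and the phosphatase gene *Dusp6*, and 0 higher, with a median of -0.20. Against the 5 situs solitus mutants 8 of the 16 were lower and 0 higher, with a median of -0.46, where 4.92% of all genes were lower and 3.23% higher at that level, together 8.15%. *Mef2c*, a muscle transcription factor, had 101 to 127 CPM against 108 to 226 CPM, and *Nkx2-5*, the cardiac homeobox gene, 46.3 to 93.7 CPM against 59.8 to 148 CPM. In the posterior second heart field only *Nkx2-6* of 18 genes had an unadjusted p under 0.05, and the median was 0.02. In the sinus venosus list 0 of 15 genes did, although its median was -0.26. Among retinoic acid genes 3 of 19 were higher, including *Crabp2*, a retinoic acid carrier (225 to 436 against 157 to 344 CPM), and in the Notch list 3 of 18 were higher. Against the 5 situs solitus mutants, 2 retinoic acid genes and 0 Notch genes were higher. In the Hedgehog list of 14 and the motile cilia list of 24, 0 and 1 genes had an unadjusted p under 0.05.

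**Figure D4:**
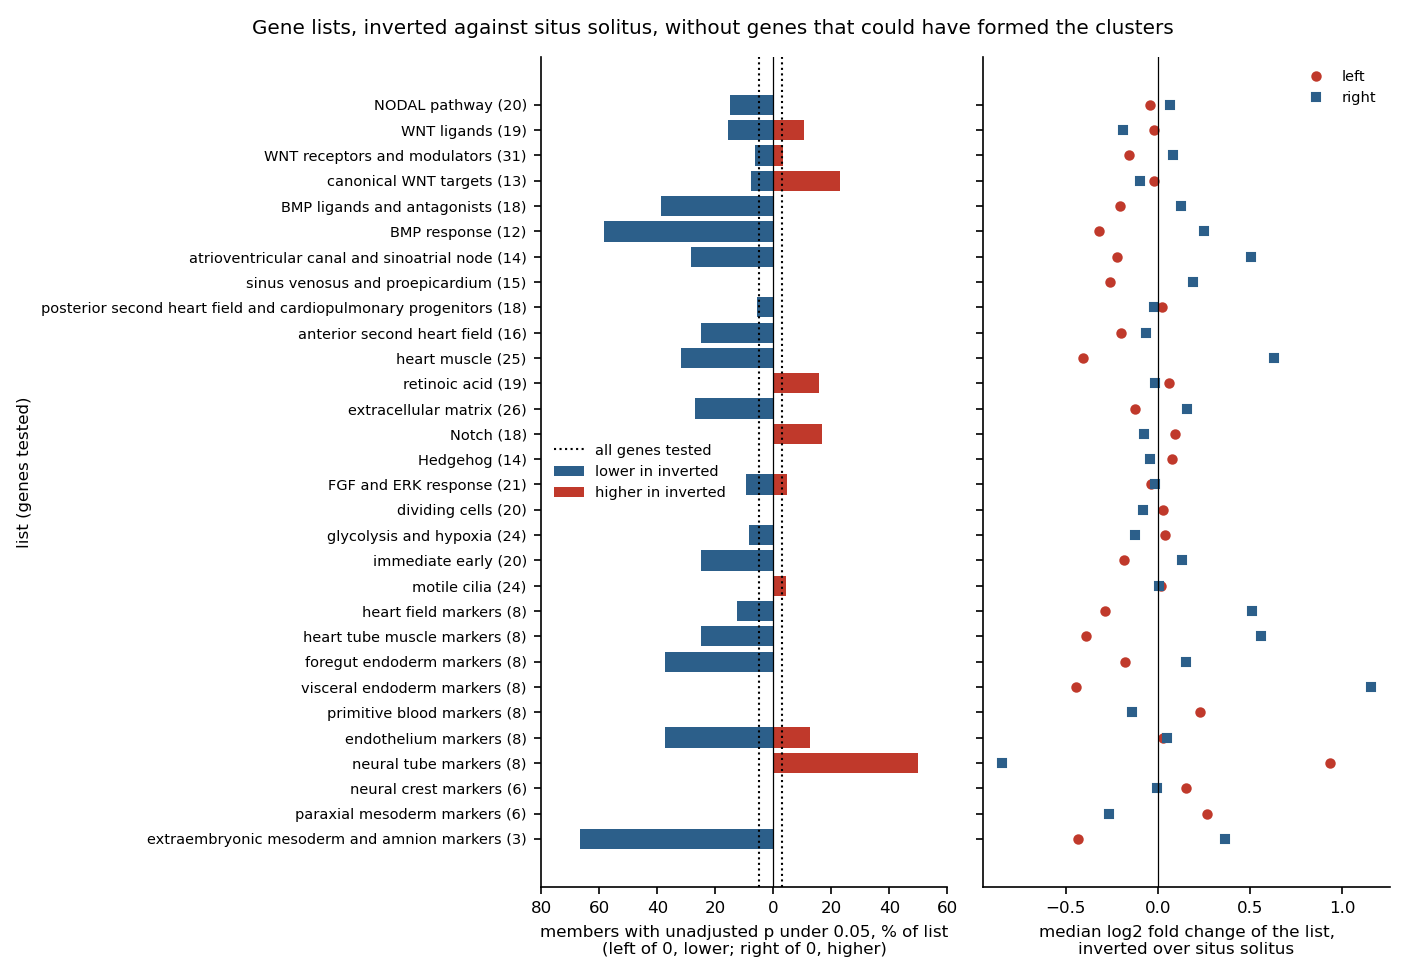
For 30 gene lists, the percentage of tested genes with an unadjusted p under 0.05 that were lower or higher on the left of inverted embryos, with dotted lines at the shares over all genes (4.82% and 2.82%), beside the median log2 difference on the left and right. BMP, heart muscle and atrioventricular canal lists have negative medians on the left and positive ones on the right.

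The study's text names 20 genes beside its transcriptomic results, most of them chosen there on these samples, so they are not independent evidence of a direction. *Wnt2* is named there as a marker in in situ hybridisation. Of the 16 outside the clustering genes, 5 were lower and 3 higher at an unadjusted p under 0.05, with medians of -0.39 on the left and 0.67 on the right. *Ptgfr*, the prostaglandin F receptor, was at 6.64, 6.72, 5.42, 8.47 and 5.48 CPM against 2.42 to 5.66 CPM with a median of 3.99 (log2 difference 0.71 ± 0.19; edgeR, adjusted p = 0.324; 0.76 ± 0.19 by label alone, adjusted p = 0.344). Its groups overlapped narrowly, and its interaction with side was 1.51 ± 0.24 (edgeR, adjusted p = 0.00764). *Retreg1*, a receptor for degradation of endoplasmic reticulum, had 2.51 to 5.79 CPM against 3.98 to 9.4 CPM. *Shox2* (3.38 to 5.15 against 0.547 to 12.4 CPM), *Wnt2* (119 to 190.0 against 27.7 to 279 CPM), *Osr1* (35.3 to 49.5 against 25.8 to 68.7 CPM), *Gal* (0.267 to 3.82 against 0.717 to 9.37 CPM) and *Misp3* (1.44 to 7.78 against 1.42 to 11.9 CPM) overlapped widely on the left. *Trabd2b* (4.46 to 9.4 against 3.98 to 11.6 CPM), *Ism1* (1.93 to 5.42 against 1.33 to 3.53 CPM) and *Fzd10* (2.75 to 4.73 against 0.764 to 5.51 CPM) did so as well.

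Markers of other tissues that the dissected piece could hold also differed in part. Neural tube markers summed to 107 to 179 CPM in inverted and 37.0 to 173 CPM in situs solitus embryos, all 8 genes had a positive left difference (median 0.93) and 7 of 8 a negative right difference (median -0.85), and 4 (*Sox2*, *Sox1*, *Nes* and *Pax3*) had an unadjusted p under 0.05. Foregut endoderm markers summed to 739 to 1203 CPM against 1019 to 1216 CPM, with 3 of 8 genes lower at that level. Among inverted embryos 2_7 alone, at 1203 CPM, reached the situs solitus range, and the other inverted sums were 739 to 897 CPM. Of the 8 foregut genes 7 had a negative left difference (median -0.18) and 7 a positive right difference (median 0.15). Of 8 visceral endoderm markers 7 had a negative left difference (median -0.45) and all 8 a positive right difference (median 1.16), with 0 under that p on the left. All 3 tested extraembryonic mesoderm markers had a negative left difference (median -0.43), and *Ahnak* and *Hand1* were lower at that level. Of 8 primitive blood markers 7 had a positive left difference (median 0.23). Of 6 tested paraxial mesoderm markers 5 had a positive left difference (median 0.27) and 5 a negative right difference (median -0.27). Visceral endoderm markers (46.4 to 706 against 29.0 to 1073 CPM), primitive blood markers (585 to 1982 against 315 to 2043 CPM), endothelial markers (357 to 438 against 368 to 486 CPM), neural crest markers (123 to 221 against 96.3 to 312 CPM), paraxial mesoderm markers (124 to 199 against 49.5 to 198 CPM) and extraembryonic mesoderm markers (166 to 259 against 183 to 516 CPM) had sums that overlapped between the groups, as did the neural tube and foregut sums. No defining marker was at 0 in all left libraries, and the part of these tissues in the differences above was not tested.

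**Figure D5:**
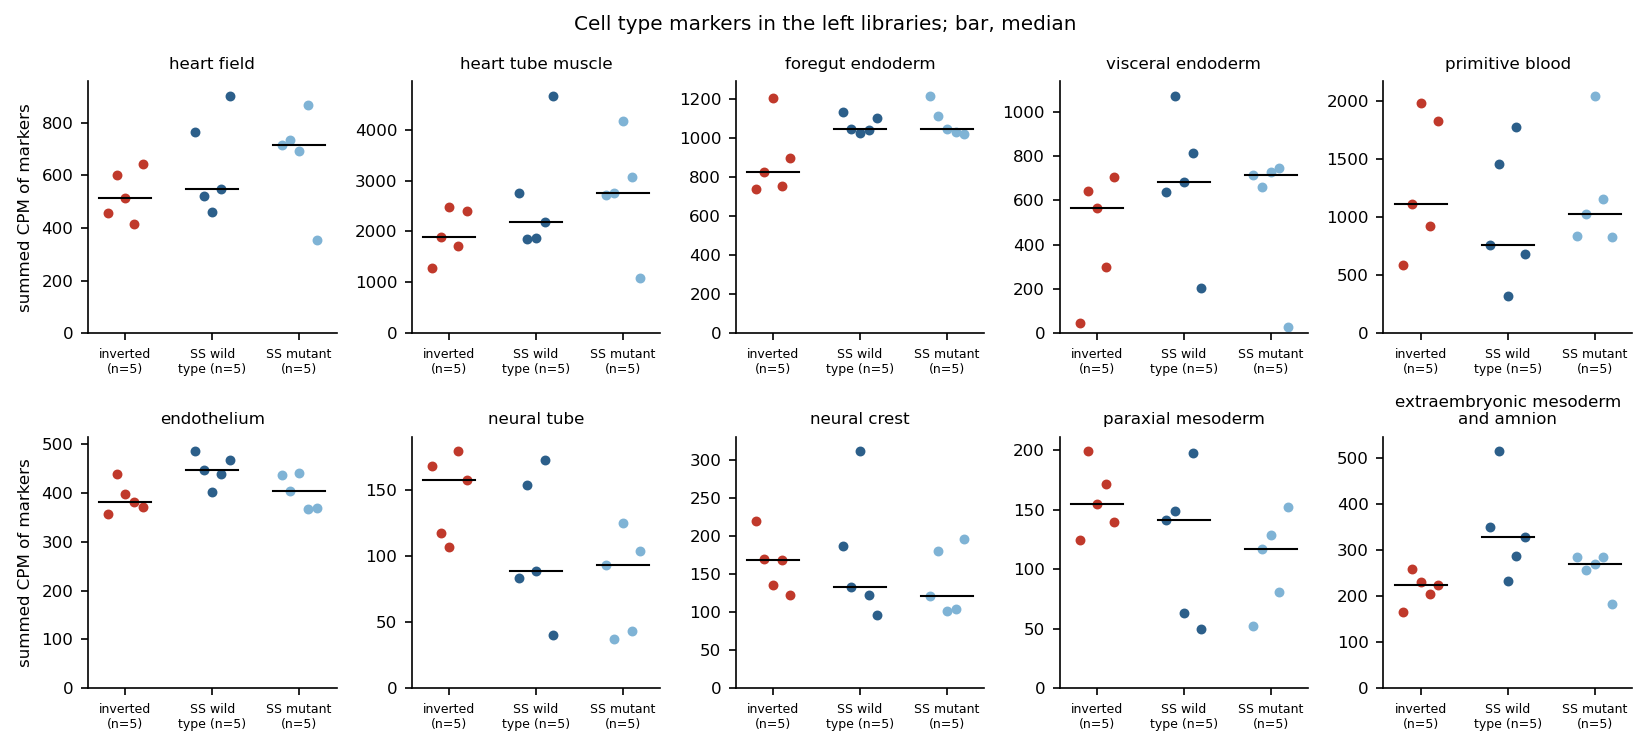
Summed left level in CPM (vertical axes from 0) of 10 marker lists in inverted, situs solitus wild type and situs solitus mutant embryos, each point being 1 library and each bar a median. The neural tube sum of inverted embryos lies between 107 and 179 CPM, and the lowest visceral endoderm sums belong to embryos 2_2 and 10_3.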

How the data were processed

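RNA-seq libraries of the left and right heart field were read as deposited counts per gene, which the authors made with STAR, Picard and featureCounts (Subread 2.0.6, per the labels) after removal of duplicate reads, on the mouse assembly GRCm39. The strand and multimapping settings are not given in the sources used here, so overlapping and antisense genes are uncertain. The table held 56953 genes, of which 56310 matched GENCODE vM39.

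Groups followed the labels and the situs assignment of the study. Genes were kept with filterByExpr (at least 5 counts, a summed minimum of 10, the share of samples set by min.prop 0.2 and large.n 50), scaled by TMM and tested in R 4.3.3 with the edgeR 4.0.16 quasi-likelihood test, with sex as a covariate and Benjamini-Hochberg adjustment at 0.05. CPM values use the TMM-scaled library sizes of the deposited counts. The interaction of group with side was fitted with the embryo as a block, since both sides come from the same animal. In the 500 most variable genes, the correlation of left and right deviations from the group means was 0.11 to 0.86 over 15 embryos. DESeq2 1.42.0, RLE scaling, other filters, other references and left-out libraries were alternatives, as were fits without libraries 2_2 and 10_3, chosen after seeing the data. The fits were tested on simulated data, in which DESeq2 called more unchanged genes than edgeR. Libraries were separate embryos, and p-values measure the spread between them. No pair of left libraries agreed within sampling noise (lowest chi-square per gene 11.6 over 105 pairs). At 38886687 or more counts per left library, precision is limited by the spread between embryos except for genes with few counts.

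The clustering genes were rebuilt as the 30 of 91 genes asymmetric in wild types that had the same direction in all 5. Genes are named by a rule: up to 12 in each direction that passed the edgeR test with no overlap between groups, a mean of at least 200 counts in the higher group and a symbol that is no gene model number, filled by smallest p with genes that did not pass, then the genes the study's text names, list members that passed, up to 4 a list, and *Ccdc40*. Many list members are named outside this rule, and members and lists were chosen with earlier results of these data known. The promoter sequence was read from GRCm39 at the GENCODE start. Some items are not reported here.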

Additional observations from a re-analysis of the deposited data

Results flagged for a closer look

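In 72 tests of a single library against the rest of its group (Dixon's test on log2 CPM, which flags about 1 in 20 groups by chance), 7 values stood apart. Of these, 5 belonged to the left library of the situs solitus embryo 2_2, namely *Trabd2b* at 3.98 CPM against a group median of 8.94, *Ccn4* at 5.62 against 20.8, *Bmp2* at 13.6 against 35.4, *Shox2* at 0.547 against 7.71 and *Wnt2* at 27.7 against 190. The same library had the lowest sum of heart field markers of its group, at 353 CPM, and the part of its tissue makeup in these values was not tested. Among inverted embryos *Tra2a* was highest in 10_3, at 201 CPM against a median of 194, and *Slc8a3* was highest in 18_2, at 2.48 CPM against 1.88.

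For 16 of the 32 named genes outside the clustering genes the difference between inverted and situs solitus embryos was not the same on the left and on the right, against 0.987% of all genes. Many of the 32 were chosen by their left values or because the study names them, so nothing is read from that share. The difference between the log2 differences was -2.02 for *Pitx1*, -1.93 for *Ccn4* and -4.58 for *4930512H18Rik*, which are clustering genes and are given without a test. For the other 16 the edgeR adjusted p lay between 0.000786 (*Lpl*) and 0.046 (*Hand2os1*). Values lower on the left than on the right were -2.42 for *Nptx2*, -0.44 for *Slc38a4*, -1.23 for *Bmp4*, -1.12 for *Lpl*, -1.31 for *Hand2os1*, -0.88 for *Sfxn3*, -0.70 for *Ggta1*, -1.59 for *Hspb8*, -5.67 for *Lefty2*, -1.45 for *Bmp2*, -2.51 for *Gal* and -2.05 for *Wnt11*. Values higher on the left were 0.83 for *Napepld*, 1.51 for *Ptgfr*, 1.22 for *Ism1* and 1.22 for *Slc8a3*.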

How the results depend on the processing

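The 4 calls on the left became 188 with DESeq2, 14 with no filter on low counts, 2 with no sex covariate, 1 with males alone, 14 against the 5 situs solitus mutants and 7 with genotype as a further covariate. Leaving out 1 library gave 2 to 13, with 2 without 10_3, 18_2 or 32_2 and 13 without 2_2. *Slc8a3* lost its call in 17 settings and *Nptx2* with males alone (log2 difference -1.50, edgeR adjusted p 0.425). The 2 calls by looping label became 125 with DESeq2, 0 with males alone and 1 without libraries 2_2 and 10_3. Leaving out 1 library gave 1 to 11, with 11 without 19_4, and *Nptx2* did not pass where 1 gene did (without 1_6, 2_7, 3_7, 4_6, 10_3, 18_1, 18_2, 19_6, 22_1 or 32_2). On the right, 0 calls became 69 with DESeq2 and 0 to 2 with 1 library left out, 2 without 1_6 and 1 without 7_1. The 253 interaction calls became 1319 with DESeq2, 33 without the replicate block, 510 with all 42 libraries and 89 without embryos 2_2 and 10_3, and 50 to 772 with 1 embryo left out. It moved by over 1.5 times without 4_6 (138), 7_1 (168), 8_1 (126), 10_3 (93), 17_1 (123), 18_2 (53), 19_6 (124), 22_4 (772) or 32_2 (50). The causes were not tested. Signs turned for *Gal* (0.25 against the situs solitus mutants and 0.40 with genotype), *Fzd10* (-0.20 with males alone), *Wnt2* (0.20 with males alone, 0.0032 with genotype, and -0.31 to 0.0048 with 1 library left out) and *Ccdc40* (0.086 against the situs solitus mutants and 0.11 with genotype), none of which had passed. Of the other values for named genes, 978 kept their sign and, where tested, their side of the threshold. Another 29 passed only in the alternative and 18 lost a call. Clustering genes have no test, and their values were counted as kept where they moved by less than the standard deviation in situs solitus.

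The inverted and situs solitus groups share no embryo, so no paired analysis was possible for the left comparison. The sort into situs solitus used expression, and genotype differs in part between the groups. *Lefty2* and *Nodal* rest on few counts.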

Other observations

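Outside the lists described above, genes of dividing cells, glycolysis, the extracellular matrix and the immediate early response were measured on the left, where 4.82% of all genes were lower and 2.82% higher at an unadjusted p under 0.05. Of 20 genes of dividing cells, 17 had a positive left difference and all 20 a negative right difference, with medians of 0.03 and -0.08, and 0 had an unadjusted p under 0.05 on the left. Among all genes with a positive left difference, 60.3% had a negative right difference. Of 24 glycolysis and hypoxia genes 2 were lower at that level, *Hk1*, a hexokinase, at 35 to 47 CPM against 39.1 to 80.3 CPM (log2 difference -0.46 ± 0.11; edgeR, adjusted p = 0.24), and the glucose transporter gene *Slc2a3*, at 1187 to 1602 CPM against 1351 to 2531 CPM. Most of the 24 went the other way, with 18 positive on the left (median 0.04) and 19 negative on the right (median -0.12). Of 26 tested matrix genes 7 were lower and 0 higher, with a median of -0.12, and of 20 immediate early genes 5 were lower and 0 higher, with a median of -0.18. Endothelial receptors *Kdr* and *Tek* and the factor *Etv2* were lower and *Emcn* higher at an unadjusted p under 0.05, among 8 endothelial markers.

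Most genes described above had opposite signs on the 2 sides, but 43 of 23487 genes (0.183%) had an unadjusted p under 0.05 in the same direction on both, 29 lower and 14 higher in inverted embryos. Of these, 16 lay on chromosome 8 between positions 70275079 and 88901662, 9 lower and 7 higher. That chromosome held 5.07% of the genes tested on both sides, and the positions are the outermost of the 16 genes themselves. *Lpar2* (chr8:70275079-70283752), a receptor for lysophosphatidic acid, was at 11.2 to 14.6 CPM on the left of inverted embryos, at 11.2 CPM in wild type 7_1 and 15.0 CPM in wild type 8_1, and at 25.0 to 49.2 CPM in the other 8 situs solitus embryos. In the other rightward mutants it was at no more than 13.6 CPM in 15_5, 18_1 and 19_4 and at 29.7 to 31.7 CPM in 23_3, 32_3 and 3_7. The levels of *Lpar2* thus fell into separate ranges that crossed the groups of situs and genotype, and the cause was not tested. *Lpar2* was named after its values were seen.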
